A study of Mus musculus with 26 samples.

Results

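Growth factors are secreted proteins that bind receptors on the same or neighbouring cells and set their growth, survival and movement. A set of 8 such genes, chosen by symbol, was followed in NIH3T3, an established fibroblast line from mouse embryos: the platelet-derived growth factors Pdgfa and Pdgfb, the epidermal growth factor family members Hbegf and Areg, the vascular growth factor Vegfa, the fibroblast growth factors Fgf2 and Fgf7, and the hepatocyte growth factor Hgf. All 8 symbols were found among the 20430 symbols of the RNA tables and the 19941 symbols of the footprint tables. They had been named with earlier results of the same libraries known. Their levels and changes are therefore a description here, and the counts that passed a threshold support nothing further about them.

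The labels gave 16 libraries of polyA-selected RNA in 8 groups and 10 libraries of ribosome footprints, the mRNA fragments covered by ribosomes, in 5 groups, with 2 replicates in each group. The RNA groups were heat at 44 °C for 2 h, heat at 42 °C for 8 h and their own control, oxidative stress by H2O2 for 2 h or 7 h, osmotic stress by KCl for 2 h or 7 h, and a control that H2O2 and KCl share. Neither control has a time in its label, so length of stress and other changes over time in culture cannot be told apart. The footprint groups were the 4 H2O2 and KCl groups and their shared control, and heat footprints were not analysed here. All groups are the same cell line, doses of H2O2 and KCl are not given in the labels, and nothing says that replicates came from separate cultures, so their spread may be technical. The experiment asks how fibroblasts under each stress change the RNA they hold and the part of it that ribosomes read.

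In RefSeq's GRCm38.p6 annotation Pdgfa lies at chr5:138976014-139000792, Pdgfb at chr15:79995865-80024614, Areg at chr5:91139599-91148432 and Vegfa at chr17:46016993-46032377. Fgf2 lies at chr3:37348477-37410106, Fgf7 at chr2:126034658-126091185 and Hgf at chr5:16553495-16619439. The values that follow are per gene symbol, as in the deposited tables.

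As background, the EGF family members Hbegf and Areg are made as membrane proteins that ADAM proteases cut free, and they signal through the receptor Egfr. Pdgfa and Pdgfb signal through Pdgfra and Pdgfrb, the receptors by which fibroblasts answer wounds, and Vegfa signals through Flt1 and Kdr on vessel cells. Fgf7 is a fibroblast product that acts on epithelial cells through a form of Fgfr2, Fgf2 is held on heparan sulfate outside the cell, and Hgf is a fibroblast product that signals through Met once proteases have activated it. Many of these genes are switched on within hours by growth or stress signals, and Sprouty proteins and Dusp6 then damp the signal inside the receiving cell.

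Total expected counts ran from 24441877 to 45244430 in the RNA libraries and from 1460751 to 5168537 in the footprint libraries, where both ends of the range are the 2 libraries of H2O2 at 2 h. Replicates correlated at r = 0.997 to 0.999 in RNA and at r = 0.956 to 0.978 in footprints, as Pearson's r of log values across genes, which are not independent replicates. All 10 fibroblast markers were present in RNA, with a summed level of 4525 to 12214 TPM (a level per transcript length that the authors computed and that has the same sum in each library). They stood at 12054 and 12214 TPM in the heat controls. The sums were between 8430 and 8710 TPM at 44 °C and between 10076 and 10425 TPM at 42 °C. In the H2O2 and KCl controls they stood at 9910 and 9959 TPM. After H2O2 they were between 9097 and 9278 TPM at 2 h and between 4525 and 4564 TPM at 7 h. After KCl they were between 11141 and 11291 TPM at 2 h and between 9098 and 9968 TPM at 7 h. At 44 °C and at 7 h of H2O2, each of the 10 genes passed as lower. Over all genes tested, 35.7% and 31.1% were called lower there. The 6 epithelial markers summed to between 8.78 and 19.6 TPM and the 4 endothelial markers to between 0.080 and 2.38 TPM. The 5 leukocyte markers summed to between 9.59 and 9.98 TPM in the H2O2 and KCl controls and to between 42.8 and 44.8 TPM after 7 h of H2O2, where Cd68 rose by 2.17 ± 0.09 (SE) on the log2 scale. Cd3e, Adgre1 and Emcn were at 0 in the 16 RNA libraries. The part of these marker shifts in the results that follow was not tested. In these bulk samples, fewer cells making a gene and less RNA of it per cell cannot be told apart.

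Changes are log2 fold changes with their standard errors (SE) from edgeR's quasi-likelihood fit over all genes tested. A gene passed the threshold at an adjusted p of at most 0.05 over all of those genes. "Rose" and "fell" are kept for genes that passed. Every comparison used 2 libraries against 2. Normalization sets the average gene's RNA change near 0, so these changes are relative, and a shift in total RNA per cell is not measured.

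**Figure D1:**
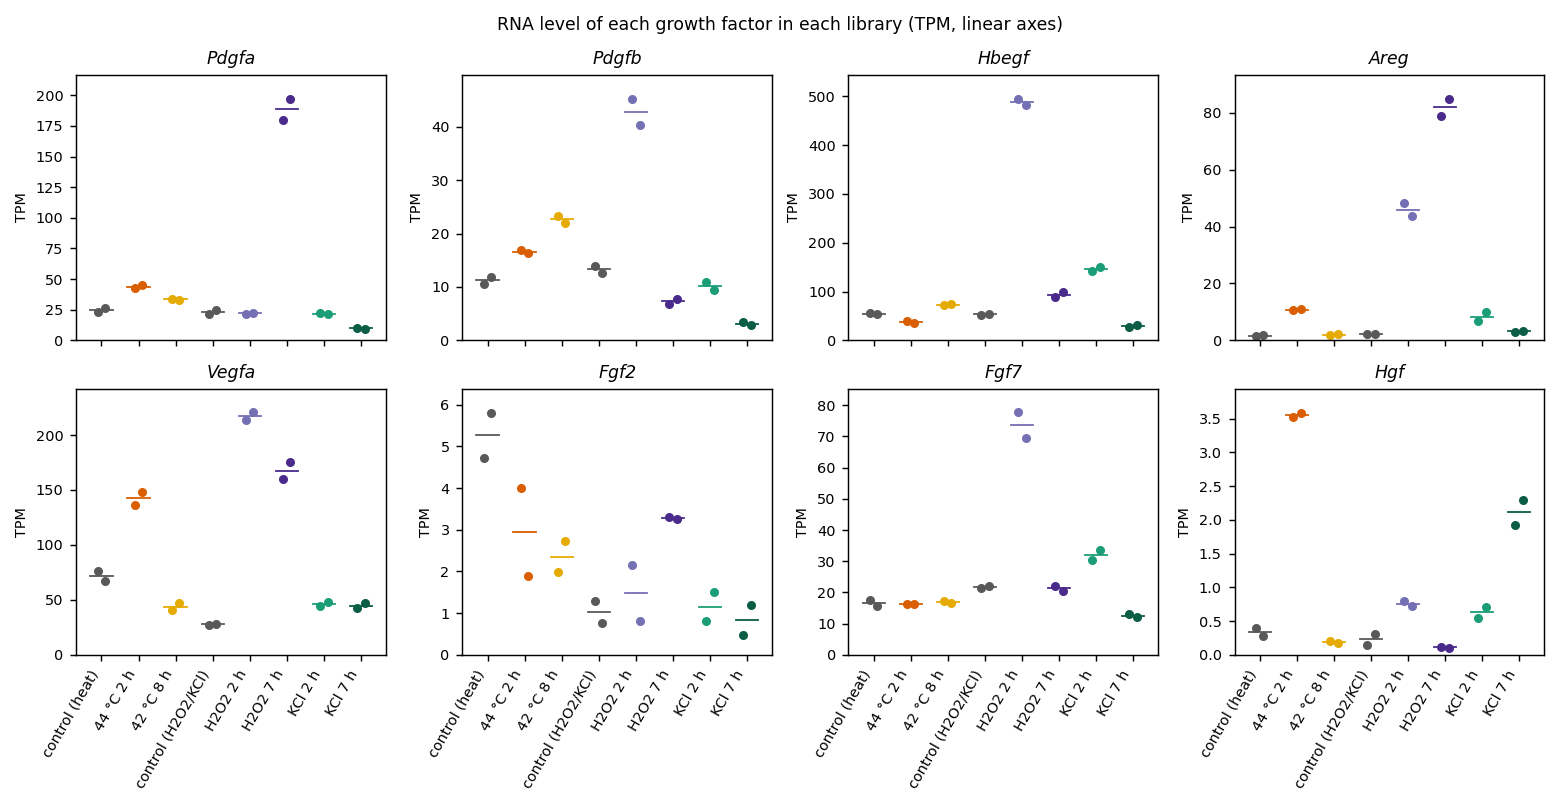
RNA level of the 8 growth factors in TPM on linear axes from 0, each panel with its own scale, with 1 point per library and a line at the mean of the 2 replicates of a group. Hbegf, Pdgfb, Vegfa and Fgf7 are highest after 2 h of H2O2, Pdgfa and Areg after 7 h of H2O2, Hgf at 44 °C and Fgf2 in the heat control.

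H2O2 for 2 h raised the RNA of 6 of the 8 growth factors and lowered none. Both EGF family members, Vegfa, Pdgfb, Fgf7 and Hgf rose, while Pdgfa and Fgf2 did not pass. Among the 13256 genes tested, 27.3% were called higher and 26.5% lower in the same comparison. The members were named with this comparison known, and nothing is read from their count.

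Hbegf, an EGF family ligand best known as a wound and stress signal, had the highest RNA level of the 8 under this stress. It stood at 52.5 and 54.2 TPM in the controls and at 496 and 482 TPM after 2 h of H2O2. Both stressed libraries were far above both controls, and the log2 fold change was 3.19 ± 0.07 (SE). By 7 h of H2O2 the level was 88.5 and 98.9 TPM, still above the controls, with a log2 fold change of 0.89 ± 0.07 (SE).

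Areg encodes amphiregulin, the other membrane-anchored ligand of Egfr in the set. Its RNA was at 2.26 and 2.34 TPM in the controls, 48.3 and 43.6 TPM at 2 h and 79.1 and 84.8 TPM at 7 h of H2O2. The 3 groups did not overlap, and the level at 7 h was the highest of the 8 groups. The log2 fold changes were 4.32 ± 0.15 (SE) at 2 h and 5.23 ± 0.14 (SE) at 7 h, the largest of any member in either comparison.

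Vegfa, the main signal for the growth of blood vessels, stood at 27.0 and 28.3 TPM in the controls of H2O2 and KCl. It reached 213 and 221 TPM at 2 h and 160 and 176 TPM at 7 h of H2O2. The log2 fold changes were 2.998 ± 0.07 (SE) and 2.67 ± 0.07 (SE), so the gene stayed high at the later time. Its level in the heat controls was 75.9 and 67.2 TPM, well above that of the other control group, and fold changes in the 2 experiments start from these different levels.

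Pdgfa and Pdgfb, which encode the A and B chains of PDGF, rose at different times under H2O2. Pdgfb stood at 13.9 and 12.7 TPM in the controls, 45.3 and 40.2 TPM at 2 h and 6.80 and 7.78 TPM at 7 h. It was thus above both controls early and below both late, with log2 fold changes of 1.71 ± 0.09 (SE) and -0.80 ± 0.10 (SE). Pdgfa stood at 21.7 and 24.7 TPM in the controls and at 21.4 and 22.6 TPM at 2 h, where the libraries overlapped. At 7 h it reached 180 and 197 TPM, with a log2 fold change of 3.15 ± 0.08 (SE).

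Fgf7, also called keratinocyte growth factor, was at 21.4 and 22.1 TPM in the controls and at 77.9 and 69.4 TPM at 2 h. Its log2 fold change was 1.76 ± 0.08 (SE). The level was back among the controls at 7 h, at 22.1 and 20.4 TPM, with a log2 fold change of 0.05 ± 0.08 (SE). Hgf was low throughout, at 0.15 and 0.31 TPM in the controls, 0.79 and 0.72 TPM at 2 h and 0.12 and 0.10 TPM at 7 h. It rose at 2 h by 1.79 ± 0.33 (SE) on the log2 scale, and its value of -0.94 ± 0.53 (SE) at 7 h did not pass.

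Fgf2 was at 1.29 and 0.76 TPM in the controls and at 2.15 and 0.82 TPM at 2 h, with overlapping libraries. At 7 h it stood at 3.31 and 3.25 TPM and rose by 1.80 ± 0.41 (SE) on the log2 scale. The gene shares its locus with Nudt6, which RefSeq places over it, and the sources used here do not say whether the counting used strand, so reads of the 2 genes may not be separated. Nudt6 itself ranged from 2.16 to 6.77 TPM over the RNA libraries. These Fgf2 values are uncertain for that reason. RefSeq also places the noncoding gene Fgf2os over Fgf2, at no more than 0.1 TPM in any RNA library. Fam227b lies over Fgf7, at no more than 0.15 TPM in any RNA library. The noncoding genes Gm41698, Gm31113 and Mir7213 overlap Hbegf, Hgf and Pdgfb, and no level is given for them. The same limit holds for these members.

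After 7 h of H2O2, 5 of the 8 members were above control and 1, Pdgfb, was below. Over all genes tested, 39.4% were called higher and 31.1% lower. The direct comparison of 7 h with 2 h passed for all 8 members, with 73.4% of all genes called in either direction. Pdgfa rose by 3.22 ± 0.08 (SE), Fgf2 by 1.29 ± 0.41 (SE) and Areg by 0.91 ± 0.10 (SE) between these times. Hgf fell by 2.73 ± 0.43 (SE), Pdgfb by 2.50 ± 0.10 (SE), Hbegf by 2.30 ± 0.07 (SE), Fgf7 by 1.71 ± 0.08 (SE) and Vegfa by 0.33 ± 0.07 (SE). Hgf had 5 and 3 counts at 7 h, and its value ran from -2.95 to -0.66 over the alternative fits of the closing section. The -0.66 is the value on the log2(TPM + 1) scale, where the added 1 shrinks changes at such low levels. The Fgf2 difference between 7 h and 2 h was 0.76 and did not pass without replicate 2 of H2O2 at 2 h, and at 1.26 it did not pass with DESeq2's test.

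**Figure D2:**
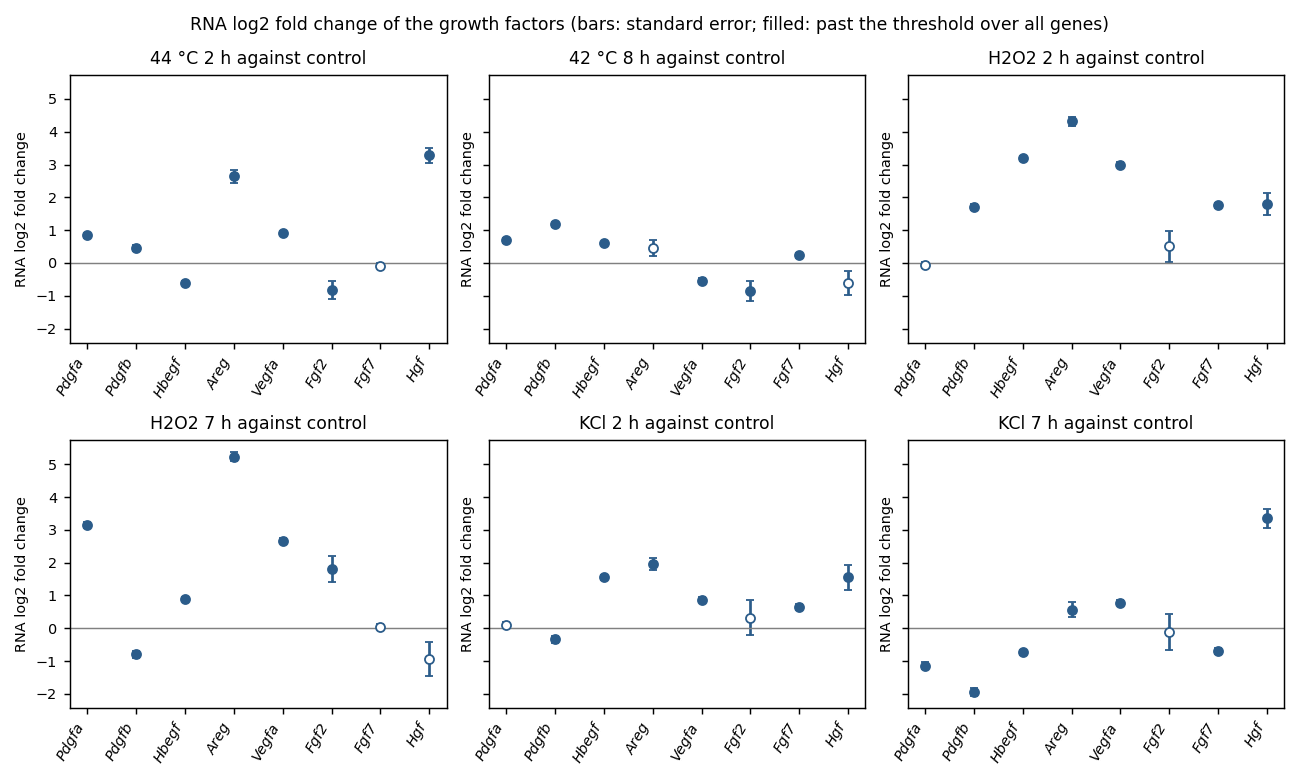
Log2 fold change of RNA against the control of the same experiment for the 8 growth factors in 6 comparisons, with bars for the SE and filled points for genes past the threshold over all genes. Under H2O2 the early panel has 6 filled points above 0, while the KCl panel at 7 h has 3 above and 4 below.

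KCl at 2 h raised the RNA of 5 members, Hbegf, Areg, Vegfa, Fgf7 and Hgf, and lowered that of Pdgfb. Over all genes tested, 27.2% were called higher and 27% lower. Hbegf reached 143 and 150 TPM and rose by 1.55 ± 0.07 (SE) on the log2 scale. Areg reached 6.80 and 9.95 TPM and rose by 1.97 ± 0.19 (SE), with both libraries above the controls. Vegfa stood at 44.7 and 48.1 TPM, a rise of 0.88 ± 0.07 (SE).

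Fgf7 stood at 30.3 and 33.7 TPM after 2 h of KCl and rose by 0.65 ± 0.08 (SE) on the log2 scale. Hgf, at 0.55 and 0.71 TPM, rose by 1.55 ± 0.37 (SE). Pdgfb, at 10.9 and 9.40 TPM, fell by 0.34 ± 0.10 (SE). That call was lost without replicate 1 of the controls (-0.28) and without replicate 2 of KCl at 2 h (-0.26). Pdgfa (0.09 ± 0.09, SE) and Fgf2 (0.32 ± 0.53, SE) did not pass.

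After 7 h of KCl, 3 members were above control and 4 below, against 37.2% and 31.6% of all genes. Hgf was the member with the largest rise. It stood at 1.92 and 2.30 TPM against 0.15 and 0.31 TPM in the controls, a log2 fold change of 3.35 ± 0.29 (SE). Vegfa held at 42.2 and 47.0 TPM, a log2 fold change of 0.78 ± 0.07 (SE).

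The 4 members that fell at 7 h of KCl were Pdgfa, Pdgfb, Hbegf and Fgf7. Pdgfb stood at 3.36 and 2.93 TPM and fell by 1.94 ± 0.12 (SE) on the log2 scale. Pdgfa stood at 10.4 and 9.39 TPM and fell by 1.14 ± 0.10 (SE). Hbegf, at 28.3 and 31.7 TPM, fell by 0.73 ± 0.07 (SE), and Fgf7, at 13.0 and 12.1 TPM, fell by 0.69 ± 0.09 (SE). Areg stood at 2.99 and 3.37 TPM, above both controls, and passed at a log2 fold change of 0.56 ± 0.23 (SE). The Areg call was lost on leaving out any 1 of the 4 libraries compared, with values from 0.49 to 0.64. Fgf2 was at 0.48 and 1.20 TPM, with overlapping libraries and a value of -0.12 ± 0.56 (SE).

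Comparing 7 h with 2 h of KCl, 6 members passed, against 68.8% of all genes in either direction. Hbegf fell by 2.29 ± 0.07 (SE), Pdgfb by 1.60 ± 0.13 (SE), Areg by 1.41 ± 0.20 (SE), Fgf7 by 1.34 ± 0.09 (SE) and Pdgfa by 1.23 ± 0.11 (SE). Hgf rose by 1.80 ± 0.26 (SE). Vegfa (-0.09 ± 0.07, SE) and Fgf2 (-0.44 ± 0.59, SE) did not pass.

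At the same time points the agents could be compared directly, although their doses are not given. At 2 h, 5 members were higher in H2O2 than in KCl and none was lower, with 27% of all genes higher and 24.2% lower. The differences on the log2 scale were 2.35 ± 0.13 (SE) for Areg, 2.12 ± 0.07 (SE) for Vegfa, 2.04 ± 0.10 (SE) for Pdgfb, 1.64 ± 0.07 (SE) for Hbegf and 1.11 ± 0.08 (SE) for Fgf7. At 7 h all 8 members differed, 7 of them higher in H2O2, with 41% of all genes higher and 37.4% lower. The exception was Hgf, which was lower in H2O2 by 4.29 ± 0.36 (SE) on the log2 scale, with 5 and 3 counts there. Over the alternative fits of the closing section this value ran from -4.50 to -1.48. The -1.48 is the value on the log2(TPM + 1) scale, where the added 1 shrinks it. Areg was higher in H2O2 by 4.67 ± 0.15 (SE) and Pdgfa by 4.29 ± 0.10 (SE).

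Heat at 44 °C for 2 h raised 5 members and lowered 2. Over all 12747 genes tested, 35.4% were called higher and 35.7% lower. Hgf had the largest change in this fit, from 0.39 and 0.28 TPM in the controls to 3.53 and 3.58 TPM, the highest level of this gene in any group. Its log2 fold change was 3.28 ± 0.22 (SE), from 20 and 13 counts in the controls. Over the alternative fits of the closing section it ran from 1.77 to 3.49, and that of Areg from 2.15 to 2.84. The low end of each range is the value on the log2(TPM + 1) scale, where the added 1 shrinks changes at low levels. On that scale the order of these 2 members is reversed, so it is not firm across scales. Areg went from 1.42 and 1.89 TPM to 10.6 and 10.9 TPM, a log2 fold change of 2.64 ± 0.20 (SE).

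Vegfa went from 75.9 and 67.2 TPM in the heat controls to 136 and 149 TPM at 44 °C, a log2 fold change of 0.91 ± 0.07 (SE). Pdgfa, at 42.9 and 44.8 TPM against 23.5 and 26.5 TPM, rose by 0.84 ± 0.07 (SE). Pdgfb, at 16.9 and 16.3 TPM against 10.6 and 11.9 TPM, rose by 0.46 ± 0.08 (SE). Hbegf, which rose most under H2O2 at 2 h in absolute level, fell here from 56.6 and 53.1 TPM to 39.9 and 35.9 TPM. Its log2 fold change was -0.60 ± 0.05 (SE). Fgf2, at 3.99 and 1.89 TPM against 4.73 and 5.81 TPM, passed as lower at -0.83 ± 0.29 (SE). Without replicate 2 at 44 °C that Fgf2 value was -0.41, without replicate 2 of the controls it was -0.73, and neither passed, nor did DESeq2's test. Fgf7 stood at 16.2 and 16.4 TPM against 17.4 and 15.7 TPM and did not pass (-0.09 ± 0.07, SE).

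At 42 °C for 8 h, 4 members were higher and 2 lower, against 31.7% and 31.9% of all genes. Pdgfb stood at 23.4 and 22.03 TPM and rose by 1.18 ± 0.08 (SE) on the log2 scale. Pdgfa, at 34.1 and 33.0 TPM, rose by 0.69 ± 0.07 (SE), and Hbegf, at 72.2 and 73.5 TPM, rose by 0.60 ± 0.05 (SE). Vegfa, at 40.3 and 47.3 TPM, fell by 0.54 ± 0.07 (SE). Hgf (-0.60 ± 0.37, SE) and Areg (0.46 ± 0.25, SE) did not pass.

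Fgf2 stood at 1.99 and 2.72 TPM at 42 °C and passed as lower at -0.86 ± 0.29 (SE). Fgf7, at 17.3 and 16.7 TPM, passed as higher at 0.23 ± 0.07 (SE) although its TPM values overlapped the controls. The Fgf2 call was lost without replicate 1 at 42 °C (-0.66), without replicate 2 of the controls (-0.76) and with DESeq2's test. The Fgf7 call was lost without the same libraries (0.19 and 0.16) and, at 0.04, on the log2(TPM + 1) scale. On that scale the median over all genes was -0.16 at 42 °C, against -0.01 in the fit of counts.

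The 2 heat regimes differed in 6 members, with 75.1% of all genes called in either direction. Hbegf was higher at 42 °C by 1.20 ± 0.05 (SE), Pdgfb by 0.72 ± 0.07 (SE) and Fgf7 by 0.32 ± 0.07 (SE) on the log2 scale. On the log2(TPM + 1) scale, where the median over all genes was -0.20, the Fgf7 value was 0.06 and did not pass. Hgf was lower at 42 °C by 3.88 ± 0.26 (SE), Areg by 2.17 ± 0.19 (SE) and Vegfa by 1.45 ± 0.07 (SE). With a minimum of 1 in absolute log2 fold change added to the threshold, 2 members were called at 44 °C (11% of all genes) and 1 at 42 °C (7.92%). Under KCl, 3 were called at 2 h (12.7%) and 3 at 7 h (18.4%) by that rule. Temperature and duration changed together between these groups, and their effects cannot be told apart.

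Set side by side across the 8 RNA groups, each gene had its own order of levels. Pdgfa ran from 9.91 TPM as the mean after 7 h of KCl to 189 TPM after 7 h of H2O2, with the 2 controls and the 2 h groups of H2O2 and KCl close together between 21.7 and 25 TPM and overlapping their neighbours in the order. Pdgfb ran from 3.15 TPM after 7 h of KCl to 42.8 TPM after 2 h of H2O2. Hbegf had the same ends of its order, at 30.01 and 489 TPM. Areg ran from 1.66 TPM in the heat control, which overlapped 42 °C, to 82.0 TPM after 7 h of H2O2.

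Vegfa ran from 27.6 TPM in the control of H2O2 and KCl to 217 TPM after 2 h of H2O2, with both KCl groups and 42 °C overlapping near 44 to 46 TPM. Fgf7 had a narrower range, from 12.5 TPM after 7 h of KCl to 73.6 TPM after 2 h of H2O2, and its 3 heat groups overlapped in turn. Hgf ran from 0.11 TPM after 7 h of H2O2 to 3.56 TPM at 44 °C. Fgf2 was highest in the heat control at 5.27 TPM, and each of its other groups overlapped a neighbour in the order.

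The genes of most like RNA pattern were found by the root mean square difference over the 6 log2 fold changes against control, among 12444 genes. Vegfa was nearest to Ryr1 at 0.34 and Hmox1, the stress-induced heme oxygenase, at 0.39. Hbegf was nearest to Spry2, an inhibitor of receptor signalling, at 0.41 and to F3, which starts blood clotting, at 0.48. Pdgfa was nearest to Mybl1 at 0.36, Pdgfb to the chemokine Cxcl10 at 0.44 and Areg to Col9a3 at 0.75. Fgf7 was nearest to Siah2 at 0.29, Hgf to Ces1a at 0.54 and Fgf2 to Serpinf1 at 0.15. The SEs of Fgf2's own 6 log2 fold changes, 0.29 to 0.56, are larger than its distance of 0.15, so that closeness lies within their error. These distances describe 6 comparisons from 2 control groups.

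The sequence before the start site is shown for 4 members, chosen as the ones that rose at 2 h of H2O2 and for which RefSeq's table for GRCm38.p6 gives a start at the end of the gene. Each is the 250 bases before the start, written 5′ to 3′ along the gene, with capitals for matches to the motifs searched. For Areg the window is chr5:91139349-91139598 on the plus strand. For Vegfa it is chr17:46032378-46032627 on the minus strand, for Fgf7 chr2:126034408-126034657 and for Hgf chr5:16553245-16553494, both on the plus strand.
Areg: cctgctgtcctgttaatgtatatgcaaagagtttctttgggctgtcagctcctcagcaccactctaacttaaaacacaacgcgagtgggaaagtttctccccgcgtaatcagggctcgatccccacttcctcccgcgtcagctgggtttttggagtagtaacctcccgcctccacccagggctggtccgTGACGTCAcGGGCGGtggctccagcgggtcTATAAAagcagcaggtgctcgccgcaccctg
Vegfa: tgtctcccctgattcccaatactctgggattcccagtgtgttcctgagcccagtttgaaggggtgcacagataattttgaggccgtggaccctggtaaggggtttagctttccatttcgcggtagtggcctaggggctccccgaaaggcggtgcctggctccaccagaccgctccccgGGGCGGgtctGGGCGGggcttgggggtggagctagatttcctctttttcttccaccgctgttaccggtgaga
Fgf7: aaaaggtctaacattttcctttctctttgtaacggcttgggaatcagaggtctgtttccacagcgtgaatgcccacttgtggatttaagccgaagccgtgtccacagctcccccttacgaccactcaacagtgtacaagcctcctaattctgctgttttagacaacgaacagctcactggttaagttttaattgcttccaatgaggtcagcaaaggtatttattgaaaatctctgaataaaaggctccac
Hgf: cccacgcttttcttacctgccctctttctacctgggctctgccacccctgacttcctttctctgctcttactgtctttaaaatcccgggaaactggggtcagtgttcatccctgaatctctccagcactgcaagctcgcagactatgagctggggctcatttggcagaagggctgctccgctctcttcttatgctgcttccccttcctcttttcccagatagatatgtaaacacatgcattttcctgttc

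The Areg window held a cAMP response element, TGACGTCA, starting 61 bases before the start, a GC box, GGGCGG, at 52 bases and a TATA box, TATAAA, at 31 bases. Vegfa held GC boxes at 72 and 62 bases. In the windows of Fgf7 and Hgf none of the motifs matched. Over 32851 windows of the same length, 1.55% held the cAMP response element, 32.7% the GC box and 12.4% the TATA box, on either strand. The same 4 windows held no AP-1 site (TGANTCA, 6.75% of all windows), no antioxidant response element core (TGACNNNGC, 10.2%), no hypoxia response element core (ACGTG, 16.6%), no heat shock element (0.466%), no EGR site (GCGGGGGCG, 2.57%) and no CArG box (1.47%). Vegfa and Hgf each have 2 start sites in RefSeq's table, and the windows of their other starts are not printed. For Vegfa that other window held a hypoxia response element core starting 211 bases before its start and a GC box at 158 bases. None of these motifs shares bases with another match in the 4 windows, and the matches describe letters, not binding. GC content was 57.2% for Areg, 59.2% for Vegfa, 43.6% for Fgf7 and 50.8% for Hgf, against a median of 52.4% over all windows.

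In ribosome footprints, 6 of the 8 members passed the filter on low counts over the 10545 genes tested, and Fgf2 and Hgf did not. Normalization sets the average gene's footprint change near 0, so a fall in the total number of ribosomes at work is not measured here. In the controls, footprints per unit of RNA differed widely among the members. The ratio of mean footprint TPM to mean RNA TPM was 9.57 for Areg, 5.55 for Hbegf, 2.93 for Vegfa, 2.46 for Fgf7, 2.00 for Pdgfb and 0.598 for Pdgfa, with a median of 0.639 over 10467 genes. Areg was thus at percentile 99.3 of those genes, Hbegf at 98.6, Vegfa at 96.5, Fgf7 at 95.3, Pdgfb at 93.3 and Pdgfa at 46.3.

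**Figure D3:**
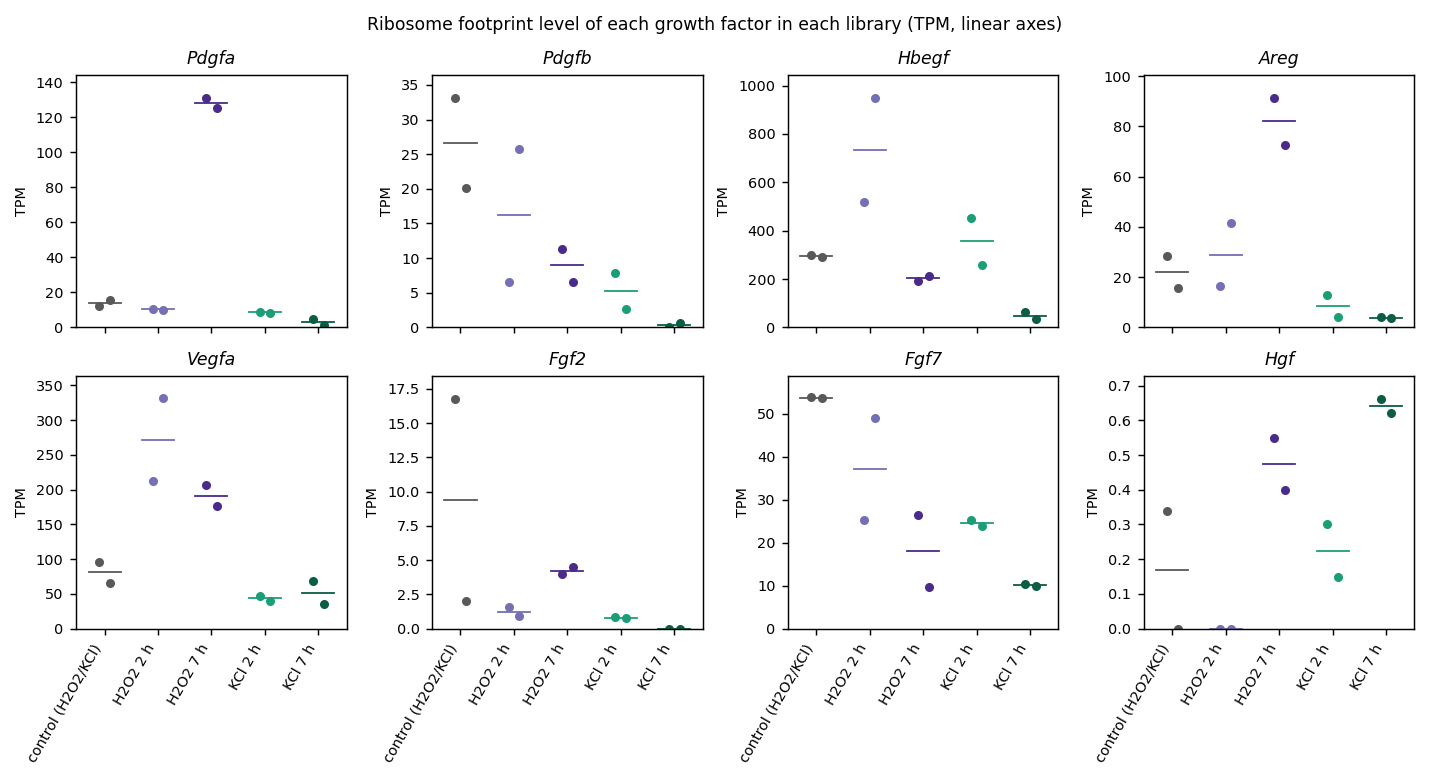
Footprint level of the 8 growth factors in TPM on linear axes from 0, each panel with its own scale, with 1 point per library and a line at the mean of the 2 replicates. Pdgfa is highest after 7 h of H2O2, Hbegf after 2 h of H2O2 with its replicates far apart, and the means of Fgf7 and Pdgfb are highest in the controls.

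After 2 h of H2O2, footprints of Hbegf and Vegfa rose and those of 4 members did not pass, with 1.14% of all genes called higher and 0.768% lower. Hbegf footprints stood at 300.4 and 292 TPM in the controls and at 518 and 950.0 TPM under stress, both above the controls but far apart from each other. The log2 fold change was 1.38 ± 0.31 (SE). Vegfa footprints stood at 95.5 and 66.2 TPM in the controls and at 212 and 331 TPM under stress, a log2 fold change of 1.86 ± 0.33 (SE). Neither call held without replicate 2 of H2O2 at 2 h, the deepest footprint library, or without replicate 2 of the controls. Without these libraries the values were 0.86 and 1.40 for Hbegf and 1.54 and 1.64 for Vegfa. The Hbegf call was also lost without replicate 1 of the controls (1.36), with the replicate block (1.39) and with the 2 groups fitted alone (1.38).

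Areg footprints at 2 h of H2O2 were 16.3 and 41.4 TPM, on either side of the controls at 28.4 and 15.6 TPM, and the value of 0.58 ± 0.42 (SE) did not pass. Fgf7 footprints were 25.2 and 49.0 TPM against 53.7 and 53.5 TPM, and Pdgfb footprints were 6.55 and 25.8 TPM against 33.1 and 20.05 TPM. Their values of -0.38 ± 0.35 (SE) and -0.59 ± 0.47 (SE) did not pass. RNA of these 3 genes had risen at the same time.

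After 7 h of H2O2 the footprints of Pdgfa, Areg and Vegfa rose and those of Pdgfb and Fgf7 fell, with 17.2% of all genes called higher and 10.6% lower. Pdgfa went from 12.3 and 15.5 TPM to 131 and 125 TPM. Its footprint log2 fold change was 3.09 ± 0.29 (SE), beside 3.15 in RNA. Areg went from 28.4 and 15.6 TPM to 91.4 and 72.7 TPM, a rise of 1.78 ± 0.40 (SE) on the log2 scale. Vegfa, at 206 and 176 TPM, rose by 1.20 ± 0.33 (SE).

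Fgf7 footprints went to 26.5 and 9.60 TPM after 7 h of H2O2 and fell by 1.70 ± 0.38 (SE) on the log2 scale, while its RNA was at the control level. Pdgfb footprints went to 11.3 and 6.59 TPM and fell by 1.90 ± 0.52 (SE). Hbegf footprints, at 192 and 213 TPM, were below both controls, and the value of -0.66 ± 0.31 (SE) did not pass. Single libraries decided 3 of the calls at this time. The Vegfa call was lost without either H2O2 library (1.01 and 1.29) or replicate 2 of the controls (0.97), the Pdgfb call without either H2O2 library (-2.07 and -1.82) or replicate 1 of the controls (-1.61), and the Fgf7 call without replicate 2 of H2O2 (-1.23).

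KCl lowered footprints and raised none among the members tested. At 2 h, Pdgfb footprints stood at 7.87 and 2.68 TPM and fell by 2.30 ± 0.55 (SE), with 1.79% of all genes called higher and 5.06% lower. That call was lost without replicate 1 of the controls (-1.91) and without replicate 2 of KCl (-1.71). Footprints of the other members gave values of 0.30 ± 0.31 (SE) for Hbegf, -0.53 ± 0.35 (SE) for Vegfa, -0.68 ± 0.36 (SE) for Pdgfa, -1.08 ± 0.37 (SE) for Fgf7 and -1.33 ± 0.49 (SE) for Areg.

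At 7 h of KCl, 5 of the 6 members fell in footprints, with 10.5% of all genes called higher and 9.83% lower. Pdgfb had 87 and 51 footprint counts in the controls and 0 and 1 counts after 7 h of KCl. The ratio of control to stressed counts, scaled to the libraries' totals after TMM normalization, was 110.4. Its exact 95% interval of 19.5 to 4394 covers counting error only. Hbegf footprints, at 62.4 and 35.2 TPM, fell by 2.58 ± 0.35 (SE) on the log2 scale. Areg footprints, at 4.16 and 3.55 TPM, fell by 2.48 ± 0.55 (SE), although its RNA was not below the controls.

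Fgf7 footprints were at 10.3 and 9.94 TPM after 7 h of KCl and fell by 2.36 ± 0.41 (SE) on the log2 scale. Pdgfa footprints, at 4.77 and 1.55 TPM, fell by 2.20 ± 0.43 (SE). Vegfa, at 68.5 and 35.4 TPM, had a value of -0.66 ± 0.35 (SE) that did not pass. The Areg call was lost without either KCl library (-2.58 and -2.35) or replicate 1 of the controls (-2.01), and the Pdgfa call without replicate 2 of KCl (-1.53).

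Fgf2 had 28 and 3 footprint counts in the controls, and the first of these libraries alone was above the filter's limit. H2O2 gave 1 and 2 counts at 2 h and 5 and 6 at 7 h, and KCl gave 1 and 1 counts at 2 h and 0 in both libraries at 7 h. No fold is given for this gene, since 28 of the 31 control counts came from 1 library and the other control, with 3 counts, was no higher than the limit that a count of 0 allows. Hgf had 0 to 5 counts in any footprint library, too few to compare.

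Translational efficiency, the footprint change beyond that of RNA, was tested as an interaction over both kinds of library. All 24 estimates, for 6 members in 4 comparisons, were below 0, and 19 of them passed as lower. The 4 comparisons share the same 2 footprint and 2 RNA controls, so they are not independent of each other. The control ratios given above come from these same libraries, where all members tested but Pdgfa stood at percentile 93.3 or above. A high control ratio enters each estimate with a minus sign, so all genes are not a matched background. How far this lowers the estimates was not tested. Efficiency estimates of all genes were below 0 in between 45.1% and 51.6% of 10480 genes, and 7.46%, 4.57%, 9.18% and 3.88% were called lower for H2O2 at 2 h, H2O2 at 7 h, KCl at 2 h and KCl at 7 h.

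**Figure D4:**
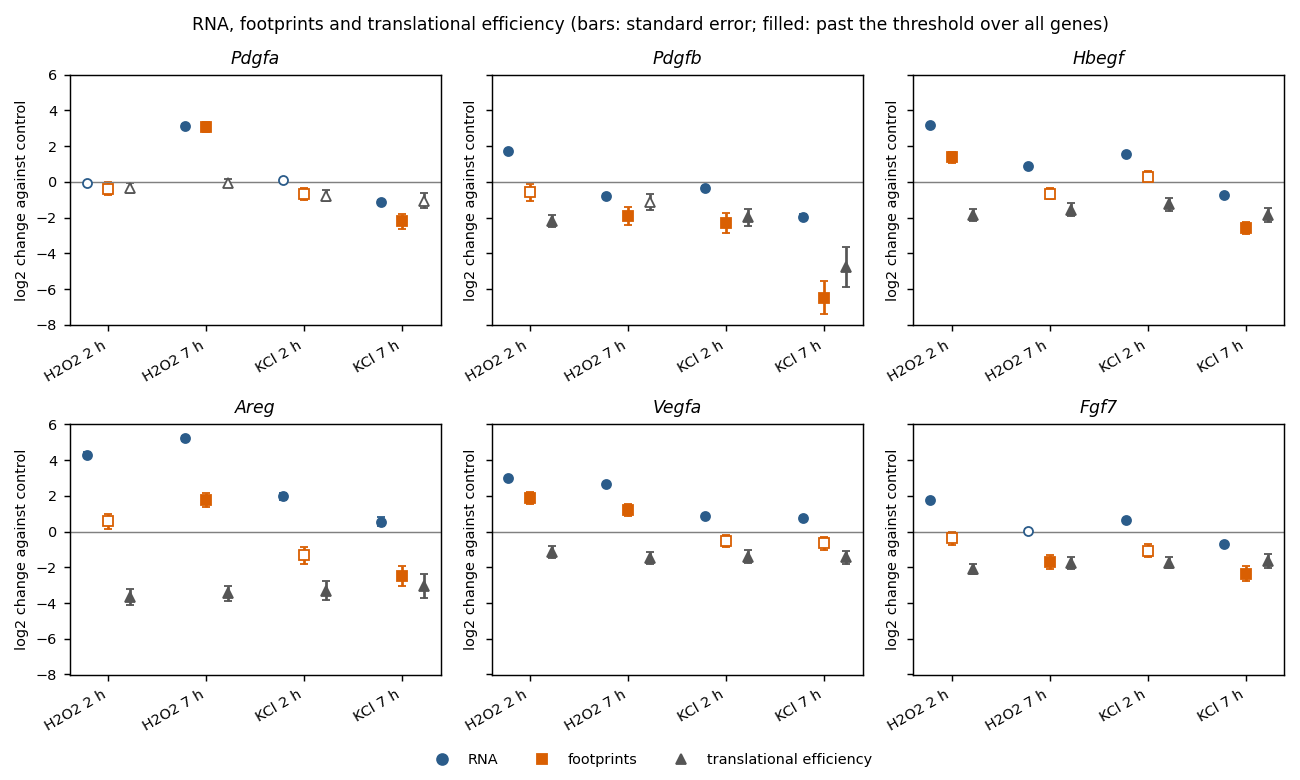
Log2 change against control of RNA (circles), footprints (squares) and translational efficiency (triangles) for the 6 members tested in footprints, with bars for the SE and filled symbols for values past the threshold over all genes. The triangles of Areg lie between -3.65 and -3.03 in each stress, and those of Pdgfa are open in each.

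Areg had the lowest efficiency values of the 6 members, save in the late KCl group. They were -3.65 ± 0.44 (SE) and -3.45 ± 0.42 (SE) after H2O2 for 2 h and 7 h, and -3.31 ± 0.54 (SE) and -3.03 ± 0.66 (SE) after KCl for 2 h and 7 h. In levels, its ratio of footprint TPM to RNA TPM went from 9.57 in the controls to 0.628 at 2 h and 1.00 at 7 h of H2O2, and to 1.01 and 1.21 at 2 h and 7 h of KCl. The value at 7 h of KCl did not pass without replicate 1 of the footprint controls (-2.56) or replicate 2 of the KCl footprints (-2.90).

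Hbegf fell in efficiency in all 4 comparisons, by 1.84 ± 0.35 (SE) and 1.55 ± 0.35 (SE) early and late in H2O2 and by 1.26 ± 0.35 (SE) and 1.84 ± 0.38 (SE) early and late in KCl. Its ratio of levels went from 5.55 to between 1.503 and 2.42. Fgf7 also fell in all 4, by 2.07 ± 0.28 (SE), 1.75 ± 0.32 (SE), 1.74 ± 0.31 (SE) and 1.65 ± 0.37 (SE) in the same order. Its ratio went from 2.46 to between 0.504 and 0.849. The Hbegf calls were lost without footprint replicate 1 in late H2O2 (-1.44), and without footprint replicate 2 in early KCl (-0.95) and late KCl (-1.45). The call at 2 h of KCl was also lost without either RNA control (-1.24 and -1.27) or replicate 2 of the KCl RNA (-1.23). The Fgf7 call in late KCl was lost without either KCl footprint library (-1.67 and -1.61), RNA control replicate 1 (-1.63) or RNA replicate 1 of KCl (-1.57), and at -1.61 with weights per kind of library.

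Vegfa passed as lower in all 4, at -1.16 ± 0.34 (SE), -1.47 ± 0.34 (SE), -1.42 ± 0.36 (SE) and -1.44 ± 0.37 (SE), in that order of stress and time. All 4 calls were lost without replicate 1 of the footprint controls (-0.89, -1.21, -1.15 and -1.17) and without replicate 1 of the RNA controls (-1.15, -1.44, -1.39 and -1.40), and each was lost without 1 or more of the other libraries too. Pdgfb fell by 2.19 ± 0.36 (SE) at 2 h of H2O2 and by 1.98 ± 0.49 (SE) at 2 h of KCl, and its value of -1.12 ± 0.45 (SE) at 7 h of H2O2 did not pass. The call at 2 h of KCl was lost without replicate 1 of the footprint controls (-1.64) or replicate 2 of the KCl footprints (-1.40). At 7 h of KCl the Pdgfb value of -4.75 ± 1.13 (SE) rests on 1 footprint count, and the call was lost without either KCl footprint library (-3.96 and -9.36).

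For Pdgfa, none of the 4 efficiency changes passed the threshold. They were -0.34 ± 0.30 (SE) and -0.05 ± 0.23 (SE) early and late in H2O2, and -0.77 ± 0.32 (SE) and -1.06 ± 0.43 (SE) early and late in KCl. Whether it differs from the other members was not tested.

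The receptors for these ligands were described next, from a list of 18 genes of which 16 were tested in heat and 17 in H2O2 and KCl. The counts of these and the following lists stand beside those of all genes tested, of which 35.4% were higher and 35.7% lower at 44 °C and 31.7% and 31.9% at 42 °C. In H2O2 the same shares were 27.3% and 26.5% early and 39.4% and 31.1% late, and in KCl they were 27.2% and 27% early and 37.2% and 31.6% late. At 7 h of H2O2, 5 receptors rose and 8 fell, with a median of 0.01 beside 0.08 over all genes. Egfr, the receptor of Hbegf and Areg, went from between 9.70 and 11.3 TPM to between 45.4 and 49.8 TPM and rose by 2.45 ± 0.08 (SE). Pdgfrb, the receptor that binds the PDGF B chain, went from between 66.1 and 71.3 TPM to between 10.7 and 11.5 TPM and fell by 2.57 ± 0.12 (SE). Fgfr4 rose by 4.45 ± 0.52 (SE) from a low level, 0.030 TPM in both controls.

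At 7 h of KCl, 8 receptors rose and 4 fell, with a median of 0.29 beside 0.04 over all genes. The Vegfa receptors Kdr and Flt1 rose by 2.64 ± 0.20 (SE) and 1.93 ± 0.14 (SE), to at most 2.58 and 4.04 TPM, and Egfr rose by 1.26 ± 0.08 (SE). Among the other comparisons, 9 receptors rose and 2 fell in early H2O2, 8 rose and 2 fell in early KCl, 3 rose and 11 fell at 44 °C, and 6 rose and 7 fell at 42 °C. The receptors' medians in these comparisons were 0.25, 0.32, -0.20 and -0.10, beside 0.00, 0.00, 0.00 and -0.01 over all genes. Kdr had the largest change in both heat groups, at 1.64 ± 0.16 (SE) and 1.77 ± 0.16 (SE). In footprints at 7 h of H2O2, Egfr rose by 2.75 ± 0.18 (SE) and Pdgfrb fell by 1.71 ± 0.36 (SE).

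Of 24 other ligands of the same families, 18 were tested in H2O2 and KCl and 14 in heat. Ereg, which encodes epiregulin, another ligand of Egfr, went from between 17.2 and 18.0 TPM in the controls to between 156 and 167 TPM at 2 h of H2O2 and between 152 and 183 TPM at 2 h of KCl. It rose by 3.20 ± 0.09 (SE) and 3.34 ± 0.09 (SE). At 7 h of H2O2, Fgf18 went from between 2.08 and 2.78 TPM to between 47.4 and 48.0 TPM, and Mst1 from 0 in both controls to between 3.89 and 4.10 TPM. At 7 h of KCl, Fgf18 fell to between 0.15 and 0.25 TPM and Ereg was at between 64.1 and 66.6 TPM. H2O2 gave 8 higher and 1 lower at 2 h and 9 higher and 5 lower at 7 h, and KCl gave 7 and 2 at 2 h and 4 and 4 at 7 h. Heat gave 4 higher and 5 lower at 44 °C and 6 and 4 at 42 °C, where Fgf21 fell by 3.07 ± 0.36 (SE). The list's median was 0.54 in early and 0.34 in late H2O2, 0.42 in early and -0.19 in late KCl, 0.06 at 44 °C and -0.14 at 42 °C. Over all genes these medians lay between -0.01 and 0.08.

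Of 27 genes that release, activate or hold the ligands, 25 were tested in H2O2 and KCl and 23 in heat. Plau, the urokinase protease, went from between 34.2 and 39.2 TPM to between 447 and 544 TPM at 7 h of H2O2 and rose by 3.83 ± 0.11 (SE). St14, which encodes matriptase, an activator of Hgf, went from between 0.090 and 0.15 TPM to between 15.2 and 15.8 TPM and rose by 7.09 ± 0.21 (SE). Hpn, a related protease, was at 0 in the controls and at 0.56 and 0.78 TPM in the same comparison. In all, H2O2 gave 11 higher and 0 lower at 2 h and 9 and 11 at 7 h, and KCl gave 17 higher and 1 lower at 2 h and 11 and 8 at 7 h. With heat, 7 rose and 10 fell at 44 °C, and 7 rose and 13 fell at 42 °C. The list's median was 0.19 in early and -0.06 in late H2O2, 0.37 in early and 0.07 in late KCl, -0.04 at 44 °C and -0.22 at 42 °C.

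Feedback inhibitors of receptor signalling were a list of 17 genes, of which 16 were tested in RNA. At 2 h of H2O2, 8 rose and 1 fell, and at 2 h of KCl 12 rose and none fell, with medians of 0.19 and 0.36 beside 0.00 over all genes. Spry2 went from between 15.0 and 16.8 TPM to between 169 and 173 TPM at 2 h of H2O2 and rose by 3.45 ± 0.08 (SE). Dusp6, a phosphatase that switches off ERK, went from between 3.45 and 4.02 TPM to between 24.0 and 25.2 TPM and rose by 2.72 ± 0.10 (SE). At 7 h, 8 rose and 5 fell in H2O2, and 8 rose and 4 fell in KCl. Heat gave 4 higher and 6 lower at 44 °C and 6 and 4 at 42 °C.

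Efficiency of the feedback inhibitors fell for 7 of 15 tested in early H2O2, 4 in late H2O2, 8 in early KCl and 4 in late KCl, and it rose for 3 in late H2O2 and for none in the others. Over all genes, efficiency was lower for 7.46%, 4.57%, 9.18% and 3.88%. The share of all genes with higher efficiency is not given here, so nothing is read from the 3 that rose. The list's medians were -0.71, -0.24, -1.04 and -0.61, beside -0.01, 0.06, -0.02 and 0.01 over all genes. Dusp6, Spry4 and Spry2 fell by 2.78 ± 0.42 (SE), 2.54 ± 0.36 (SE) and 1.91 ± 0.30 (SE) at 2 h of H2O2. Ereg fell in efficiency as well, by 2.45 ± 0.35 (SE) at 2 h of H2O2 and by 3.24 ± 0.36 (SE) at 2 h of KCl. In the controls, mean footprint and RNA TPM were 49.0 and 3.735 for Dusp6 and 10.6 and 0.875 for Spry4. They were 27.6 and 15.9 for Spry2 and 80.4 and 17.6 for Ereg. The limit given for members with a high control ratio holds for these genes too, so all genes are not a matched background. How far it lowers these estimates was not tested.

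**Figure D5:**
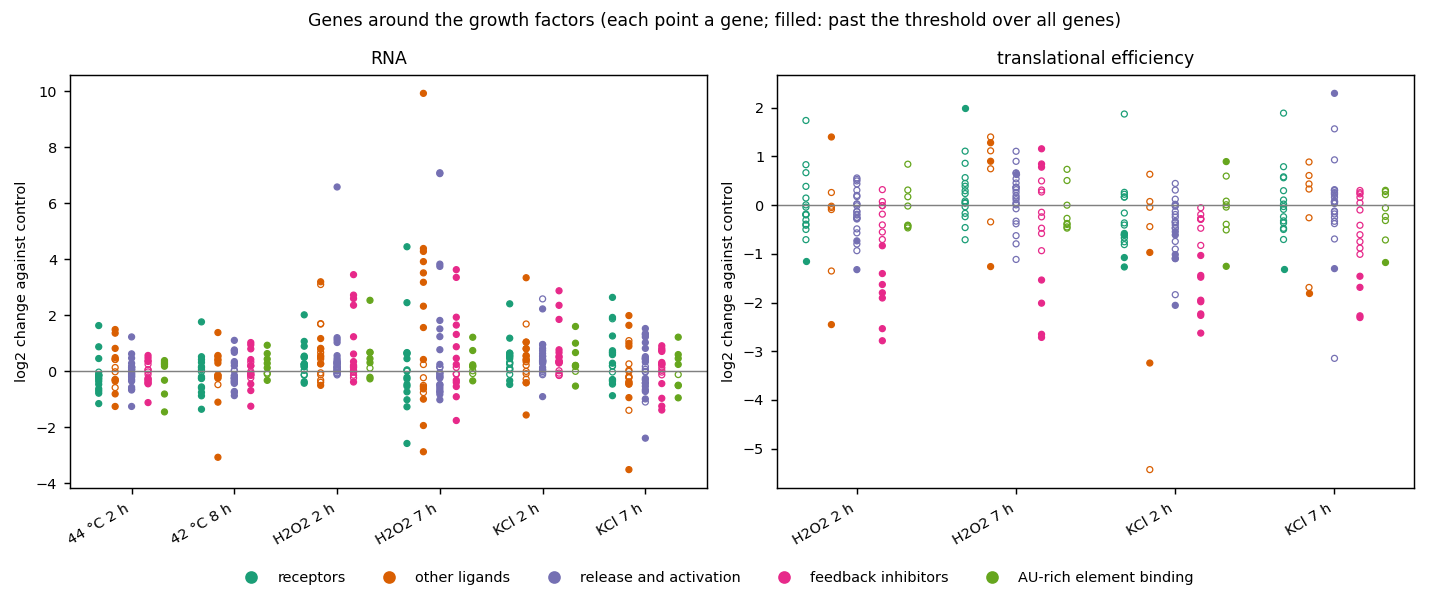
Log2 change against control of genes in 5 lists around the growth factors, in RNA (left) and translational efficiency (right), with 1 point per gene and filled points past the threshold over all genes. In the right panel 7 of 15 feedback inhibitors are filled and below 0 in the H2O2 2 h column, and 8 in the KCl 2 h column.

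AU-rich element binding proteins, which control the life of many short-lived mRNAs, were a list of 8 genes, all tested. H2O2 gave 5 higher and 2 lower in RNA at 2 h and 5 and 1 at 7 h, and KCl gave 6 and 1 at 2 h and 4 and 3 at 7 h. Zfp36, which promotes decay of such mRNAs, went from between 19.4 and 19.7 TPM to between 105 and 122 TPM at 2 h of H2O2 and rose by 2.54 ± 0.09 (SE). Its footprints rose by 3.44 ± 0.29 (SE) at the same time. Heat gave 5 higher and 3 lower at 44 °C and 5 and 1 at 42 °C. The list's median was 0.38 in early and 0.18 in late H2O2, 0.21 in early and 0.07 in late KCl, 0.22 at 44 °C and 0.21 at 42 °C, beside -0.01 to 0.08 over all genes.

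The authors' deposited tables of transcription past gene ends were searched for the members. A DoG (downstream-of-gene transcript) is RNA that runs on past the end of an upstream gene, and read-in is such RNA entering the next gene. Pdgfa, Areg and Vegfa appeared in no gene pair, and the other members appeared in 7 pairs. DoG calls were made in 16 of 112 pair and library combinations (14.3%), beside 28.5% of 102384 for all pairs. No read-in was called into or out of a member, beside 1.38% for all pairs. The authors' deposited estimate of read-in from Galk2 into Fgf7, a ratio, was 0 and 0.0133 in the controls. KCl gave 0.0425 and 0.0547 at 2 h, and 0.0681 and 0.0386 at 7 h. This pair is named after its values were seen. Each KCl library was above both controls, by an amount that the authors' calls did not count as read-in.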

How the data were processed

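NIH3T3 RNA (16 libraries) and ribosome footprints (10 libraries) were analysed from the tables the authors deposited. Per the file headers, the authors deposited TPM values and, for the same genes, expected counts that are all whole numbers. They also deposited read-in estimates as a ratio for gene pairs. The submitters' processing notes name STAR, RSEM, Bowtie and build mm10, with no role, and the sources used here give no versions. Another 12 columns had names of no labelled sample and were left out.

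Counts were fitted with edgeR 4.0.16 (R 4.3.3; quasi-likelihood F test, TMM, filterByExpr) with Benjamini-Hochberg adjustment at 0.05 over all genes tested. Heat RNA (6 libraries), H2O2 and KCl RNA (10), and footprints (10) were fitted apart, and translational efficiency as the interaction over 20 libraries. SE is the fold change divided by the root of F. The fit was tested on simulated data. TPM is printed as a level per library. Alternatives were DESeq2 1.42.0, limma 3.58.1 on log2(TPM + 1) and the others in the closing section.

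The members, lists and tests were chosen with earlier results of these data known. The text names all 8 members, the nearest genes by pattern (up to 3 for each) and, from each list and comparison, genes past the threshold with the largest change, up to 3. Gene positions, starts and sequences come from RefSeq GRCm38.p6, and 19885 of 20430 symbols matched its gene table. Motifs were searched on both strands.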

Additional observations from a re-analysis of the deposited data

Results flagged for a closer look

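In 14 cases the RNA of a member differed between 2 h and 7 h of the same agent. The test was the direct comparison of 7 h with 2 h, given as a log2 difference from edgeR's fit. The control is common to both times, so length of stress and time in culture cannot be told apart. Under H2O2 the later time was higher for Pdgfa (3.22), Fgf2 (1.29) and Areg (0.91). It was lower for Hgf (-2.73), Pdgfb (-2.50), Hbegf (-2.30), Fgf7 (-1.71) and Vegfa (-0.33). Under KCl the later time was higher for Hgf (1.80) and lower for Hbegf (-2.29), Pdgfb (-1.60), Areg (-1.41), Fgf7 (-1.34) and Pdgfa (-1.23). Over all genes, 73.4% passed in the first comparison and 68.8% in the second. No group had more than 2 libraries, so no test for a single outlying library applied.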

How the results depend on the processing

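Over 136 results for single members, 1319 of 1430 alternatives kept direction and side of the threshold, 81 lost the call, 8 gained one and 22 changed sign. In RNA, 64 of 71 calls held under every alternative run, in footprints 5 of 13 and in translational efficiency 8 of 19. Fits without 1 library assume that the lone sample left in its group varies like the others. Requiring a 1-unit log2 change as well left 2 members called at 44 °C, 1 at 42 °C, 3 at KCl 2 h and 3 at KCl 7 h in RNA.

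Counts of footprint calls for H2O2 at 2 h were 0 on log2(TPM + 1), 1 with only the groups compared and 0 to 2 with 1 library left out. For KCl at 2 h they were 0 on log2(TPM + 1), 2 with only the groups compared and 0 to 2 with 1 library left out. With 1 library left out, the counts were 2 to 5 in footprints for H2O2 at 7 h, 3 to 6 for KCl at 7 h, 2 to 6 in efficiency for KCl at 2 h and 0 to 6 for KCl at 7 h. Weights per kind of library gave 3 in efficiency for KCl at 7 h. The libraries behind the lowest counts were replicate 2 of the H2O2 2 h footprints and of the footprint controls (0 calls), replicate 2 of the H2O2 7 h footprints (2 calls), replicate 1 of the footprint controls and replicate 2 of the KCl 2 h footprints (0 calls), and replicate 2 of the KCl 7 h footprints (3 footprint and 0 efficiency calls). The cause was not tested.

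Sign changes touched values that had not passed. Fgf7 RNA at H2O2 7 h was -0.032 on log2(TPM + 1), -0.0070 with only the groups compared and -0.092 to 0.10 with 1 library left out. Pdgfa RNA on log2(TPM + 1) was -0.089 at KCl 2 h and 0.017 for H2O2 against KCl at 2 h. With 1 library left out, Pdgfa RNA ran from -0.18 to 0.025 at H2O2 2 h and from -0.017 to 0.19 at KCl 2 h, and its efficiency from -0.21 to 0.13 at H2O2 7 h. Fgf2 RNA ran from -0.45 to 0.59 for 42 °C against 44 °C, -0.33 to 1.03 at H2O2 2 h, -0.16 to 0.67 at KCl 2 h, -0.84 to 0.45 at KCl 7 h, -1.16 to 0.13 for KCl 7 h against 2 h and -0.60 to 0.72 for H2O2 against KCl at 2 h. Areg footprints ran from -0.38 to 1.03 at H2O2 2 h and Hbegf footprints from -0.10 to 0.61 at KCl 2 h.

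The replicate numbers were not taken to pair the libraries, since not every correlation of deviations between groups was over 0.1: they ran from 0.02 to 0.11 in heat RNA and -0.10 to 0.11 in H2O2 and KCl RNA. In footprints, all 6 among control, late H2O2 and both KCl groups were 0.19 to 0.41, and the 4 with early H2O2 were -0.38 to -0.05. With the replicate block, 134 of 136 results kept their side. Pdgfa for 42 °C against 44 °C passed at -0.15, and Hbegf footprints at H2O2 2 h no longer passed at 1.39, which left 1 footprint call there. Fgf2 and Hgf had too few footprint counts to be tested. On log2(TPM + 1) the median of all genes shifted to -0.16 at 42 °C.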
